A study of Mus musculus with 10 samples.

Results

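Expression of 10 genes of the acute-phase and NF-kB response was followed in RNA-seq libraries of utricular supporting cells. They were Lcn2, Serpina3n and C3, the chemokines and cytokine Cxcl1, Cxcl10, Ccl2 and Il6, and the NF-kB genes Nfkb1, Nfkbia and Tnfaip3, 10 of the 48709 genes in the count tables. The set was chosen by symbol, with the opposite changes of Lcn2 and Serpina3n between TRULI-treated and control cultures at 5 days in view, the condition being read from the names of the deposited tables. The values of that contrast are therefore a description of how the set was picked and carry no test here. All 10 members were found in every table, and Lcn2, Nfkbia, Nfkb1, Tnfaip3 and Serpina3n had a count in each of the 10 libraries.

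The cells came from utricles, the balance organs of the inner ear, of mice at postnatal day 21 that carry a GFP reporter driven by the Lfng promoter. The utricles were cultured for 5 days with 10 µM TRULI, an inhibitor of the Lats kinases that restrain the coactivator Yap, in 0.1% DMSO (TRULI_d5, n = 3) or with 0.1% DMSO alone (DMSO_d5, n = 3). Other utricles received the same treatments and then 5 more days in culture with neither agent (TRULI_d10, n = 2, and DMSO_d10, n = 2). GFP-positive cells were sorted before RNA extraction, so every group shares the culture, the vehicle, the reporter and the sort. The study's methods report at least 2 biological replicates per condition. The sources do not say how many utricles or animals entered a library. Where libraries came from 1 culture, the adjusted p-values measure technical spread alone. In a sorted pool, fewer cells of a type and less RNA per cell cannot be told apart.

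The condition of 4 libraries was uncertain. For 6 libraries, the label of the sample and the name of its deposited table gave the same condition. The libraries labelled TRULI_d5 replicates 1 and 2 were deposited under names that read DMSO_d10, and the libraries labelled DMSO_d10 replicates 1 and 2 under names that read TRULI_d5. Ccn2, a direct target of Yap, was measured at 8.89 to 15.6 CPM (counts scaled to a common library size) in the DMSO_d5 libraries and at 714 CPM in the library labelled TRULI_d5 replicate 3. It was at 2.04 and 6.48 CPM in the libraries labelled TRULI_d5 replicates 1 and 2, at 490 and 482 CPM in those labelled DMSO_d10 replicates 1 and 2, and at 15.3 and 3.67 CPM in TRULI_d10. The 3 libraries with high Ccn2 were thus those that carry TRULI_d5 in the table name. Every result below follows the sample labels first and then the deposited names.

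Library totals ranged from 2463872 to 6255149 counts, so that 1 count corresponds to 0.157 to 0.401 CPM, and 14250 to 17040 genes had a count. The mitochondrial transcript mt-Rnr2 took 1.45% to 2.53% of all counts in 4 libraries, labelled TRULI_d5 replicates 1 and 2 and TRULI_d10 replicates 1 and 2, and 13.0% to 26.4% in the other 6. By deposited name, those 4 libraries are the 10-day libraries. All 16 supporting-cell markers on a list of such genes had counts, with a summed level of 5306 to 14684 CPM. Lfng, whose promoter drove the sorted reporter, was at 21.2 to 100 CPM in the 4 libraries with little mt-Rnr2 and at 291 to 564 CPM in the others.

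Cells that meet infection or injury release cytokines such as interleukin 1, interleukin 6 and tumour necrosis factor, and the receptors for these act largely through NF-kB and Stat3. NF-kB is held in the cytoplasm by inhibitor proteins of the I-kB family. Its release turns on chemokines, acute-phase proteins and its own inhibitors, which close a feedback loop. Supporting cells of the inner ear survive the loss of hair cells, and they are known to secrete chemokines after damage.

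RefSeq promoter windows, from 250 bases before the transcription start to 50 bases after it on GRCm38.p6, were found for 8 of the 10 members, in 9 windows, and not for Ccl2 and Nfkb1. The 3 members that varied most clearly between libraries are shown first, read 5′ to 3′ on the strand of the gene, with capitals for a match to any of 4 motifs on either strand. The Lcn2 window is chr2:32387690-32387989, minus strand, the Serpina3n window is chr12:104406458-104406757, plus strand, and the Nfkbia window is chr12:55492598-55492897, minus strand.
Lcn2: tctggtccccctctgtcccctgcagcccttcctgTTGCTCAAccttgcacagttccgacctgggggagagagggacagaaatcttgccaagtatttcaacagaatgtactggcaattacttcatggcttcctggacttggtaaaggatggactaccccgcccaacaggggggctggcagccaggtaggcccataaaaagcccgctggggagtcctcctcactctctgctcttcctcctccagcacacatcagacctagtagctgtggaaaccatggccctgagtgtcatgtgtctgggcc
Serpina3n: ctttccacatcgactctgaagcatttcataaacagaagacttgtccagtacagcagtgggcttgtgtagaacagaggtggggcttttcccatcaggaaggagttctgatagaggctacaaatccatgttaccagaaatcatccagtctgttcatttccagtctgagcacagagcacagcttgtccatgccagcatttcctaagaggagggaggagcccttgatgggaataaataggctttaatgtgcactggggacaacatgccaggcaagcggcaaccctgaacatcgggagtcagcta
Nfkbia: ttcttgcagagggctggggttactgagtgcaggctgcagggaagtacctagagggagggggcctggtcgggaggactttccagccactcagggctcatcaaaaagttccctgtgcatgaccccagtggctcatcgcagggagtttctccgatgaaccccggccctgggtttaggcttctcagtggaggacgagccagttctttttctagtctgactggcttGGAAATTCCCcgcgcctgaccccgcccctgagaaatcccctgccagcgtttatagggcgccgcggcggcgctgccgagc

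The motifs searched were the NF-kB (kB) consensus, the STAT core TTCNNNGAA, the C/EBP core TTGCNNAA and the Tead core GGAATG. Of the 32851 windows of this length in the table, 8.46% held a kB match, 8.30% a STAT match, 10.8% a C/EBP match and 14.7% a Tead match. A kB match was found in 5 of the 8 members with a window, Cxcl1, Cxcl10, Il6, Nfkbia and Tnfaip3. The Lcn2, C3 and Il6 windows held a C/EBP match, and no member held a STAT or Tead match within these bases. In the Serpina3n window none of the 4 motifs was matched. The kB matches are set out to show how alike they are, as read on the strand of the gene.
Cxcl1: GGGAATTTCC
Cxcl10: GGGAAATTCC
Cxcl10: GGGGACTTCC
Il6: GGGATTTTCC
Nfkbia: GGAAATTCCC
Tnfaip3: GGGACACCCC
Tnfaip3: GGAAATCCCC
The kB motif reads nearly the same on both strands, so that overlapping matches at one place in Cxcl1 and Cxcl10 are given once. The match in Nfkbia began 29 bases before the start and those in Tnfaip3 125 and 12 bases before the start of the first of its 2 windows. The second Tnfaip3 window held no match.

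Levels per length differed widely within the set. Expressed as TPM (abundance corrected for transcript length and library size) and averaged over all 10 libraries, Lcn2 was at 498, Nfkbia at 122, Nfkb1 at 44.4, Tnfaip3 at 13.5 and Serpina3n at 10.7 TPM. The chemokines, C3 and Il6 were all below 4 TPM, with Cxcl1 at 3.44, Ccl2 at 3.06, Cxcl10 at 2.33, C3 at 1.82 and Il6 at 0.12 TPM. Lcn2 alone thus exceeded the summed mean level of the other 9 members.

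Lcn2 (chromosome 2, 32384633 to 32388252, minus strand) encodes lipocalin 2, a secreted protein that binds bacterial siderophores and is a classical marker of inflamed epithelium. It was at 14.0, 12.2 and 12.4 CPM in the DMSO_d5 libraries. It was at 211, 131 and 149 CPM in the libraries labelled TRULI_d5 replicates 1 to 3, at 80.8 and 84.2 CPM in those labelled DMSO_d10, and at 544 and 403 CPM in TRULI_d10. The 3 control libraries at 5 days were the lowest and the 2 TRULI_d10 libraries the highest, under either reading of the condition.

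By sample label, the order of mean Lcn2 levels from low to high was DMSO_d5 with 12.9 ± 0.997 CPM (SD, n = 3), DMSO_d10 with 82.5 ± 2.43 (n = 2), TRULI_d5 with 164 ± 42.0 (n = 3) and TRULI_d10 with 473 ± 99.6 (n = 2). No neighbours in that order overlapped. By deposited name the order was DMSO_d5, TRULI_d5 with 105 ± 38.7 CPM, DMSO_d10 with 171 ± 56.7 CPM and TRULI_d10, and the 2 in the middle overlapped, at 80.8 to 149 against 131 to 211 CPM. The highest library held 44.6 times the CPM of the lowest.

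**Figure D1:**
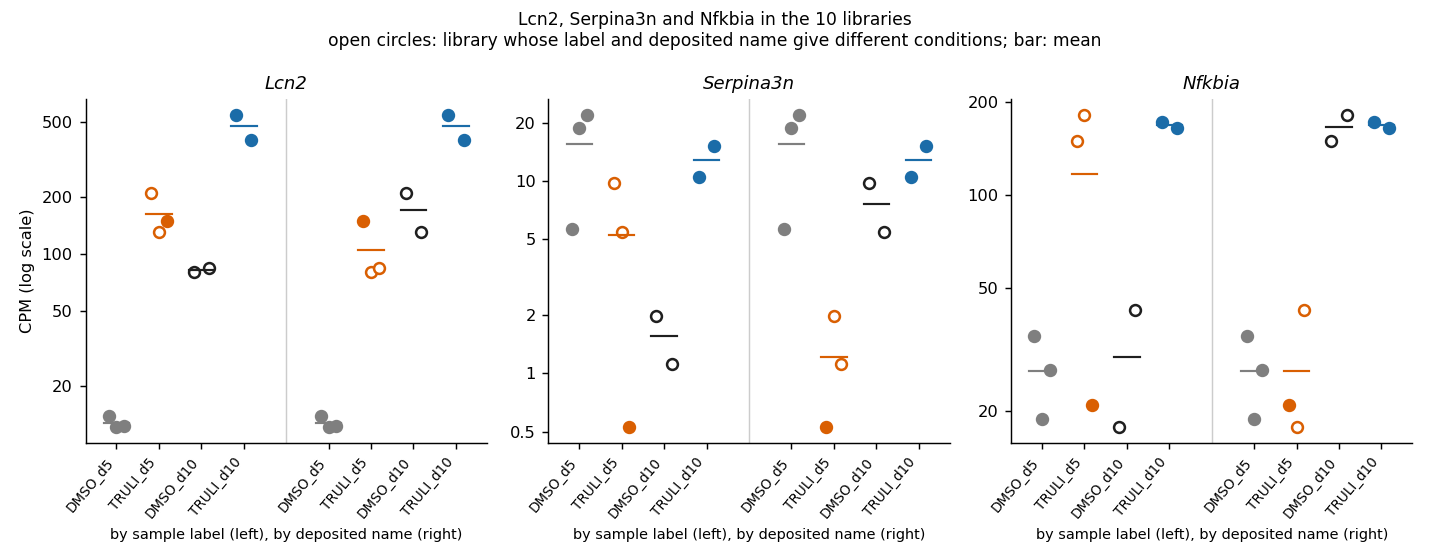
CPM on a log axis of Lcn2, Serpina3n and Nfkbia in the 10 libraries, grouped by sample label on the left of each panel and by deposited name on the right. Each point is a library, bars are group means, and open circles are the 4 libraries whose label and name give different conditions. Lcn2 was at 12.2 to 14.0 CPM in DMSO_d5 and above 80 CPM in all others, and Nfkbia formed a high set of 4 libraries at 150 to 181 CPM.

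Serpina3n (chromosome 12, 104406729 to 104414329, plus strand) encodes a secreted inhibitor of serine proteases, related to human α1-antichymotrypsin and induced in reactive glia. It was at 5.61, 18.8 and 21.9 CPM in DMSO_d5, from counts of 14, 57 and 88. The libraries labelled TRULI_d5 replicates 1 to 3 held 9.72, 5.40 and 0.527 CPM, from counts of 62, 15 and 2. Those labelled DMSO_d10 held 1.99 and 1.12 CPM, from counts of 8 and 5, and TRULI_d10 held 10.5 and 15.1 CPM. The 3 lowest libraries were the 3 with TRULI_d5 in the deposited name.

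By label, DMSO_d10 was the lowest group for Serpina3n with 1.56 ± 0.616 CPM (SD, n = 2), followed by TRULI_d5 with 5.22 ± 4.60 (n = 3), TRULI_d10 with 12.8 ± 3.27 (n = 2) and DMSO_d5 with 15.4 ± 8.63 (n = 3). Only TRULI_d5 and TRULI_d10 were separated among the neighbours in that order. By deposited name, TRULI_d5 was lowest with 1.21 ± 0.738 CPM (n = 3) and stood below DMSO_d10 with 7.56 ± 3.06 (n = 2), which did not overlap TRULI_d10. TRULI_d10 and DMSO_d5 overlapped. Of its 10 paralogs of the Serpina3 cluster on chromosome 12, Serpina3h had 18 counts in all libraries together, Serpina3i 9, Serpina3g 1, and the other 7 none, against 385 for Serpina3n.

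At 5 days, the contrast for which the set was picked, Lcn2 was 12.9-fold higher in the libraries labelled TRULI_d5 than in DMSO_d5, a log2 fold change of 3.69 (SE 0.36). By deposited name it was 8.26-fold higher, a log2 fold change of 3.05 (SE 0.30). Serpina3n was 2.88-fold lower by label, with a log2 fold change of -1.53 (SE 0.88) and overlapping groups, and 12.2-fold lower by deposited name, with a log2 fold change of -3.61 (SE 0.65) and no overlap. The opposite signs of Lcn2 and Serpina3n were thus present under both readings, and the size of the Serpina3n difference rested on the reading. In the 6 libraries on which label and name agree, with a lone TRULI_d5 library, Serpina3n had a log2 fold change of -4.80 and Lcn2 of 3.54.

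Of the 10 members, only Lcn2 had groups that did not overlap by label in this contrast, where 8.18% of all genes tested were higher in every TRULI_d5 library and 10.0% lower. By name, Lcn2 was higher without overlap, beside 10.6% of all genes, and Serpina3n lower, beside 10.7%. Nothing is read from these counts, since the contrast chose the set. Nfkbia showed the strongest dependence on the reading, with a log2 fold change of 2.14 (SE 0.68) by label and 0.03 (SE 0.38) by name. Tnfaip3 was at 0.93 (SE 0.55) by label, and 0.32 without TRULI_d5 replicate 3. By name it was at 0.73 (SE 0.54), and -0.17 without the library named TRULI_d5 replicate 1, which is the same library. Nfkb1 was at -0.17 (SE 0.32) and -0.36 (SE 0.24). C3 passed the filter on low counts only by label, at 1.07 (SE 1.27). Of its 13 counts in DMSO_d5, 12 lay in replicate 1, and the value was 4.33 without that library and -0.59 in the agreed libraries. Cxcl1, Cxcl10, Ccl2 and Il6 did not pass the filter.

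The DMSO groups of the 2 times were also compared, and since the DMSO_d5 libraries helped to choose the set, these values too are a description. From DMSO_d5 to DMSO_d10 by label, Lcn2 was 6.46-fold higher (log2 fold change 2.69, SE 0.27) and Serpina3n 9.79-fold lower (log2 fold change -3.29, SE 0.70). By deposited name, Lcn2 was 13.2-fold higher (3.72, SE 0.33) and Serpina3n 2.04-fold lower with overlapping groups (-1.03, SE 0.64). The libraries labelled DMSO_d10 are those with Ccn2 at 490 and 482 CPM, against 8.89 to 15.6 CPM in DMSO_d5, and the part of this in the difference was not tested. By label the same libraries are the controls after withdrawal. Groups of 2 members did not overlap by label, Lcn2 above and Serpina3n below, where 16.2% of all genes were higher and 15.1% lower. By name they were Lcn2 and Nfkbia, both above, where 26.5% of genes were higher and 28.1% lower.

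The question after withdrawal was whether cultures once exposed to TRULI differed from vehicle cultures of the same age. Lcn2 was higher in both TRULI_d10 libraries than in either control, 5.77-fold by label (log2 fold change 2.53, SE 0.36) and 2.80-fold by deposited name (1.48, SE 0.40). Serpina3n was also higher in both, 8.17-fold by label (3.03, SE 0.79) and 1.68-fold by name (0.75, SE 0.79). No test is given for Lcn2 and Serpina3n here. The libraries labelled DMSO_d10 are, by name, TRULI_d5 libraries of the contrast that chose the set, whereas by name none of the 4 libraries entered that contrast. The value of Serpina3n by name lay within 1 SE of 0. By name, 14 hair-cell markers summed to 996 and 172 CPM in TRULI_d10 against 54.1 and 72.0 CPM in DMSO_d10. Of the 9 tested, 7 were higher without overlap, beside 14.8% of all genes, and 0 were called. Their median log2 fold change was 3.01. A marker low in DMSO_d10 could pass the filter on low counts through TRULI_d10 alone, where these sums were higher. Nothing is therefore read from this count or this median. By label the sums overlapped, at 571 and 221 CPM in DMSO_d10, and the median was 0.77. The part of hair cells in the levels of Lcn2 and Serpina3n was not tested.

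For the 8 other members, differences were tested with edgeR's quasi-likelihood test and adjusted over all genes by the Benjamini-Hochberg method. Genes were called at an adjusted p below 0.05 if their log2 fold change also exceeded 1 in size. By label, 0 of the 8 were called, beside 2.07% of the 12242 genes tested. Of the 4 that passed the filter, Nfkbia alone had an unadjusted p under 0.05, and DESeq2 called it. Over all genes by label, 24.5% had such a p and DESeq2 called 7.42% of 19310. By name, 0 of the 8 were called beside 0% of 11568 genes. Of the 5 that passed, 0 had an unadjusted p under 0.05 (4.6% of all genes), and DESeq2 called 0 (0.29% of 18651 genes). Those that passed included Cxcl10 under both readings, which passed only in comparisons that hold TRULI_d10, where it is high. By name they also included C3, which passed partly through DMSO_d10. Nothing is read from the place of Cxcl10 and C3 in these tallies. Values were higher in both TRULI_d10 libraries than in either control for Lcn2, Serpina3n, Cxcl10 and Nfkbia by label, and for C3, which had failed the filter, beside 27.3% of all genes tested. By name these were Lcn2, Serpina3n and Cxcl10, beside 14.8%. Nothing is read from these counts, since Lcn2 and Serpina3n chose the set and Cxcl10 had most of its counts in TRULI_d10.

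**Figure D2:**
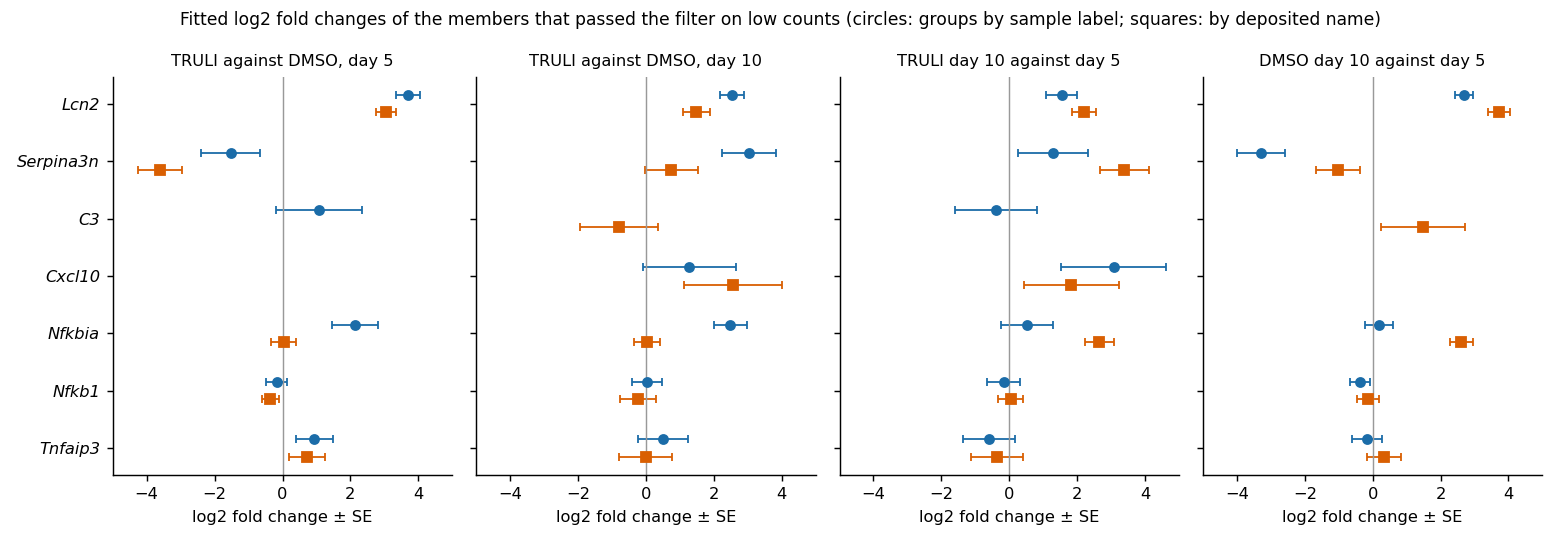
Fitted log2 fold changes with their standard errors for the 7 members that passed the filter on low counts in at least 1 fit, in the 4 comparisons, as circles by sample label and squares by deposited name. Lcn2 lay above 0 in all 8 fits, from 1.48 to 3.72, and Nfkbia at 5 days was at 2.14 by label and 0.03 by name.

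Nfkbia (chromosome 12, 55489410 to 55492647, minus strand) encodes I-kB alpha, the inhibitor that NF-kB itself induces. It was at 34.9, 18.8 and 27.1 CPM in DMSO_d5, at 150, 181 and 20.8 CPM in the libraries labelled TRULI_d5 replicates 1 to 3, at 17.7 and 42.2 CPM in those labelled DMSO_d10, and at 172 and 164 CPM in TRULI_d10. By label the group means were 26.9 ± 8.04 CPM in DMSO_d5 (SD, n = 3), 117 ± 84.9 in TRULI_d5 (n = 3), 29.96 ± 17.3 in DMSO_d10 (n = 2) and 168 ± 5.38 in TRULI_d10 (n = 2), and by name TRULI_d5 was at 26.9 ± 13.4 and DMSO_d10 at 165 ± 22.3. The values fell into 4 high and 6 low libraries with a gap between 42.2 and 150 CPM. The 4 high libraries were the 4 with the low mt-Rnr2 share and low Lfng, and no other member separated them from the rest. The summed level of 16 supporting-cell markers was 5306 to 8395 CPM in these 4 libraries and 8657 to 14684 CPM in the other 6. That of 6 Schwann cell and glia markers, most of it from Egr2, was 398 to 1048 CPM against 94.1 to 309 CPM. The part of either in the level of Nfkbia was not tested.

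After withdrawal by label, Nfkbia was 5.60-fold higher with TRULI, a log2 fold change of 2.48 (SE 0.49, adjusted p = 0.0511 by edgeR), short of the threshold. The log2 fold change was 1.97 without DMSO_d10 replicate 1 and 3.27 without DMSO_d10 replicate 2. Its adjusted p was 5.63e-05 by DESeq2, and over all alternatives that kept the labels it ran from 9.15e-07 without TRULI_d10 replicate 1 to 0.338 without DMSO_d10 replicate 1. By deposited name the log2 fold change was 0.04 (SE 0.39, edgeR adjusted p = 0.9998). The low mt-Rnr2 share separated the groups in the same way by label (TRULI_d10 at 1.45% and 2.50%, DMSO_d10 at 23.7% and 13.0%), and its part in the difference was not tested. By name all 4 libraries had low shares, but the control libraries were then others, so the readings do not isolate the share.

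**Figure D3:**
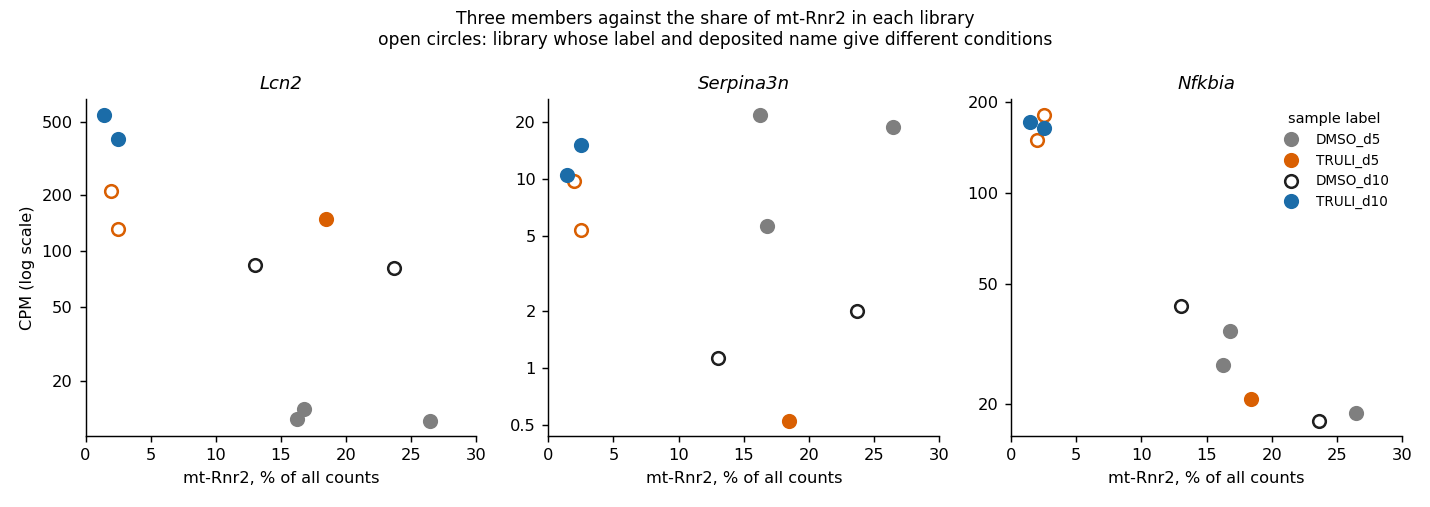
CPM on a log axis of Lcn2, Serpina3n and Nfkbia against the percent of all counts taken by mt-Rnr2, a point per library, coloured by sample label, with open circles for the 4 libraries whose label and name differ. The 4 libraries at 1.45% to 2.53% mt-Rnr2 held 150 to 181 CPM of Nfkbia and the other 6 held 17.7 to 42.2 CPM, whereas Lcn2 and Serpina3n overlapped between these sets.

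TRULI withdrawn was then compared with TRULI present. Lcn2 was 2.91-fold higher in TRULI_d10 than in the libraries labelled TRULI_d5 (log2 fold change 1.54, SE 0.47) and 4.61-fold higher than in those so named (2.21, SE 0.35). Serpina3n was 2.43-fold higher by label (1.28, SE 1.03) and 10.5-fold higher by name (3.39, SE 0.71). Neither gene's groups overlapped under either reading. These values again carry no test. The comparison shares the TRULI_d10 libraries with the one after withdrawal. By name it also holds both libraries labelled DMSO_d10, so that without the library named TRULI_d5 replicate 1 it is the same fit as the comparison after withdrawal by label. The results for Nfkbia, Timp1 and Cx3cl1 in these 2 fits thus rest largely on the same libraries and are not independent.

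Among the remaining 8 members, edgeR called 0 by label, beside 0% of the 12288 genes tested, where 0 of the 5 that passed the filter had an unadjusted p under 0.05 and DESeq2 called 0. By name it called 1, Nfkbia, beside 13.9% of 12450 genes. Of those that passed, Cxcl10 under both readings and C3 by label carry the limit given above. By name Nfkbia was 6.31-fold higher in TRULI_d10, a log2 fold change of 2.66 (SE 0.41, adjusted p = 0.0130 by edgeR). The call was lost without the library named TRULI_d5 replicate 1 (log2 fold change 2.48, adjusted p = 0.0511) and without that named TRULI_d5 replicate 2 (2.41, adjusted p = 0.0731), and kept without each of the other 3. In the 6 agreed libraries, where TRULI_d5 is a single library, the log2 fold change was 3.003. By name, a low mt-Rnr2 share marked both TRULI_d10 libraries and none of the TRULI_d5 libraries, so that the condition and whatever set that share cannot be told apart. In this comparison by name, 2 of the 3 glia markers tested were called higher, Egr2 and Mbp, and 5 of the 16 supporting-cell markers lower, among them Lfng and Slc1a3. Of 8 fibroblast markers 1 was called higher, as was 1 of 7 after withdrawal by label. The 10 on that list summed to 112 to 205 CPM in the 4 libraries with a low mt-Rnr2 share and 40.5 to 132 CPM in the other 6. The part of such cells was not tested.

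In the same comparison by label, Nfkbia had a log2 fold change of 0.53 (SE 0.76, edgeR adjusted p = 0.999). Groups did not overlap for Lcn2, Serpina3n and Cxcl10 by label, all higher, beside 7.85% of all genes, and for these and Nfkbia by name, beside 24.1%. For the reasons given above, nothing is read from these counts.

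Nfkb1 (chromosome 3, 135584655 to 135691547, minus strand) encodes p105, the precursor of the NF-kB subunit p50. It was the steadiest member, between 31.6 and 61.1 CPM in all libraries. After withdrawal its log2 fold change was 0.03 (SE 0.45, edgeR adjusted p = 0.974) by label and -0.23 (SE 0.53, adjusted p = 0.9998) by name. Between TRULI withdrawn and present it was -0.16 (SE 0.49, adjusted p = 0.999) by label and 0.04 (SE 0.36, adjusted p = 0.954) by name.

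Tnfaip3 (chromosome 10, 19000910 to 19015657, minus strand) encodes A20, a ubiquitin-editing enzyme that shuts off NF-kB signaling upstream of I-kB. It ranged from 7.95 to 59.3 CPM, and the spread lay within groups. TRULI_d10 held both 38.5 and 7.95 CPM, and the library labelled TRULI_d5 replicate 3 was the highest at 59.3 CPM. After withdrawal its log2 fold change was 0.50 (SE 0.74, edgeR adjusted p = 0.711) by label and -0.0031 (SE 0.79, adjusted p = 0.9998) by name. Without TRULI_d10 replicate 1 the value by label was -1.08. By name it ran from -1.58 without that library to 0.71 without TRULI_d10 replicate 2. Between TRULI withdrawn and present it was -0.60 (SE 0.78, edgeR adjusted p = 0.999) by label and -0.36 (SE 0.76, adjusted p = 0.770) by name. The latter ran from -1.91 without TRULI_d10 replicate 1 to 0.50 without the library named TRULI_d5 replicate 1. The 2 feedback inhibitors Nfkbia and Tnfaip3, both with kB matches before their starts, thus did not vary together, with a Pearson correlation of log2 CPM of -0.02 over the 10 libraries.

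C3 (chromosome 17, 57203970 to 57228136, minus strand), the central component of complement, had 12, 0 and 1 counts in DMSO_d5. It had 25, 14 and 4 counts in the libraries labelled TRULI_d5, 3 and 3 in those labelled DMSO_d10, and 24 and 4 in TRULI_d10. The 2 libraries labelled DMSO_d10, at 0.748 and 0.674 CPM, lay just below TRULI_d10 replicate 2 at 0.816 CPM, a gap worth less than 1 count. Where C3 passed the filter in a tested comparison, it did so partly through the libraries with 25 and 14 counts. These lay on the side where its mean was higher, so its fitted values are given without a p. Its log2 fold change was -0.79 (SE 1.16) after withdrawal by name and -0.39 (SE 1.22) from TRULI present to withdrawn by label. With a library left out, the former ran from -2.42 without TRULI_d10 replicate 1 to -0.08 without TRULI_d10 replicate 2. The sign of the latter changed, to 0.35 without TRULI_d10 replicate 2. C3 holds the microRNA gene Mir6978 on its own strand.

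The secreted signals of the set were near the limit of detection. Cxcl1, a neutrophil attractant, had 0 to 15 counts per library and a range that overlapped between all groups. Cxcl10, an interferon-induced attractant of T cells, had 17 and 13 counts in TRULI_d10, at 2.96 and 2.65 CPM, against 0 to 10 counts elsewhere, the highest being 2.25 CPM in the library labelled DMSO_d10 replicate 2. It stood highest in both TRULI_d10 libraries under either reading. Cxcl10 passed the filter on low counts only in the comparisons that hold TRULI_d10, the group where it is high, so its fitted values rest on that selection and are given without a p. Its log2 fold change after withdrawal was 1.27 (SE 1.37) by label, and ran from 0.29 without DMSO_d10 replicate 1 to 6.80 without DMSO_d10 replicate 2. By name it was 2.56 (SE 1.44), and 6.66 without the library named DMSO_d10 replicate 1. Between TRULI withdrawn and present it was 3.08 (SE 1.55) by label and 1.83 (SE 1.404) by name, and it reached 6.61 without the library labelled TRULI_d5 replicate 1 and 6.73 without that named TRULI_d5 replicate 3. Cxcl10 overlaps Art3 on the opposite strand, as does Ccl2 with Gm17268, and Nfkb1 shares its strand with Gm43430. No source gives the strand setting of the counting, so reads of such pairs could have been split.

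Ccl2, which attracts monocytes, had 38 counts in TRULI_d10 replicate 1, at 6.63 CPM, and 0 in replicate 2. The other 8 libraries held 5 counts in all. The level of Ccl2 in its group was thus set by a lone library, and it failed the filter in all 4 comparisons under both readings. That library also had the highest summed level of 10 neutrophil markers, at 9.94 CPM against 0 to 1.43 CPM in the others, most of it from Ltf, and whether the 2 go together was not tested. Il6, the main inducer of the hepatic acute-phase response, had 1 count in each of 2 libraries and none in the other 8, where the level that 0 counts allow, 3 counts, is 0.470 to 1.202 CPM per library.

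**Figure D4:**
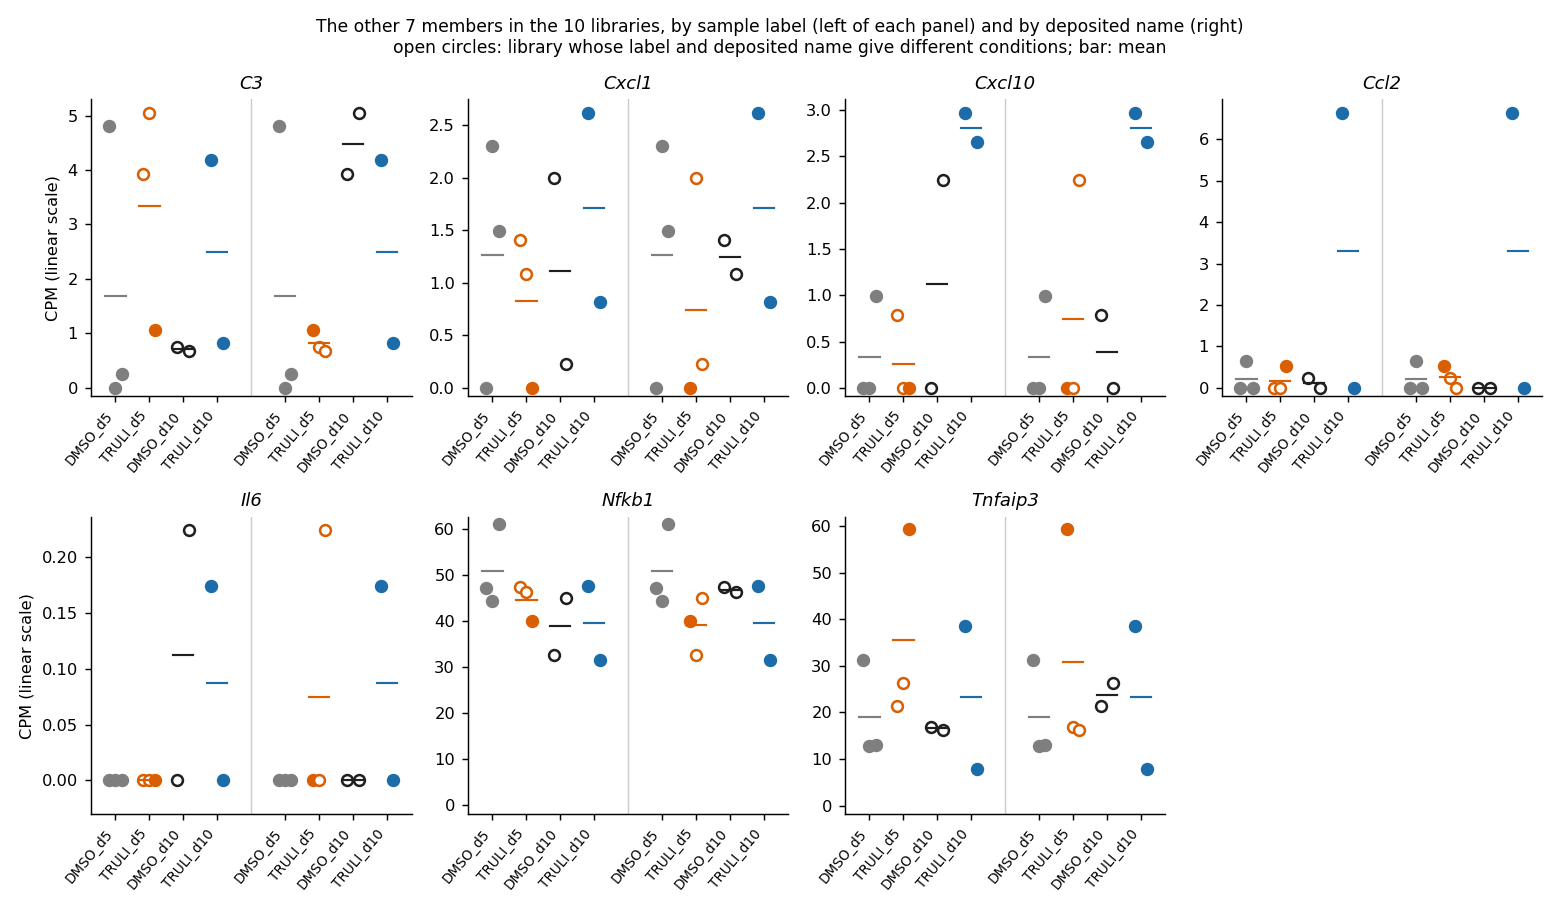
CPM on a linear axis of the other 7 members in the 10 libraries, by sample label on the left and deposited name on the right of each panel, with points for libraries, bars for means and open circles for libraries whose label and name differ. Nfkb1 lay between 31.6 and 61.1 CPM throughout, Cxcl10 was highest in both TRULI_d10 libraries, and Ccl2 was set by 1 library at 6.63 CPM.

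Macrophages and neutrophils make several of the same proteins, and their markers were low. Of 15 macrophage markers 8 had no count in any library, among them Adgre1, Itgam, Cx3cr1 and the C1q genes, and the summed level of the list was 0.994 to 18.1 CPM. It was 0.994 to 2.64 CPM in DMSO_d5, where Lcn2 was lowest. By label it was 5.80 to 9.22 CPM in TRULI_d5, 7.86 and 10.97 CPM in DMSO_d10, and 1.74 and 18.1 CPM in TRULI_d10, so that 6 of the 7 libraries with higher Lcn2 lay above all 3 DMSO_d5 libraries. The exception, with 1.74 CPM, was TRULI_d10 replicate 1, the library with the most Lcn2. Cd68, which other cells also express, gave most of this sum in most libraries. Of 10 neutrophil markers, Elane, Mpo and Retnlg had no count. Their summed level was highest in the TRULI_d10 libraries, where Lcn2 was highest too, at 9.94 and 1.43 CPM against 0 to 1.10 CPM in the other 8. Most of the 9.94 CPM was Ltf, at 8.89 CPM, and the 1.43 CPM came from 1 gene, Camp. The markers S100a8, S100a9, Ngp, Cxcr2 and Csf3r had 1 count each over all libraries. The part of such cells in the level of Lcn2 was not tested.

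Genes of the same pathways were examined as 4 lists of 115 genes in the comparisons with TRULI_d10. Among 30 further acute-phase and complement genes, the highest levels per length were those of the metallothioneins Mt1 at 230 TPM and Mt2 at 80.3 TPM, which bind zinc and copper, and of Timp1 at 20.9 TPM, an inhibitor of matrix metalloproteinases. Serum amyloid genes Saa1 and Saa2, Orm1 and the fibrinogen genes Fga and Fgb had no count in any library.

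After withdrawal by label, 5 of the 30 were tested. The only edgeR call was Timp1, which entered the test through TRULI_d10 alone, beside 2.07% of all genes. DESeq2 called Mt1, Mt2 and Timp1, beside 7.42%. The counts of Timp1 were 172 and 44 in TRULI_d10 and 1 in each library labelled DMSO_d10. The rate ratio was 85.9, with an exact 95% interval of 23.5 to 714 for counting error alone. Timp1 passed the filter on low counts through TRULI_d10 alone, the group where it is high. Its call and its place in the median of the list rest on that selection. Nothing is therefore read from them, and no p is given for this fit. The call was lost without either library labelled DMSO_d10, with fitted log2 fold changes of 6.27 without replicate 1 and 6.18 without replicate 2, against 6.23. The fitted value was 5.07 without TRULI_d10 replicate 1 and 6.83 without TRULI_d10 replicate 2. The median log2 fold change of the 5, Timp1 included, was 2.43 against 0.02 over all genes. By deposited name edgeR and DESeq2 called 0 of 5, 0 had an unadjusted p under 0.05, and their median was -0.08, against 0.01 over all genes. Timp1 then had a log2 fold change of 1.23 (SE 0.83, edgeR adjusted p = 0.9998).

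With TRULI withdrawn against TRULI present, edgeR called 0 of 6 of these genes by label, 0 had an unadjusted p under 0.05 and DESeq2 called 0, with a median of 0.56 against -0.02. By name edgeR called 3 of 6 higher, Mt1, Mt2 and Timp1, beside 13.9% of all genes called. The median, Timp1 included, was 1.95 against -0.01. Mt1 rose 5.33-fold (log2 fold change 2.42, SE 0.46, edgeR adjusted p = 0.0192) and Mt2 6.999-fold (2.81, SE 0.65, adjusted p = 0.0287). Timp1 had 4 counts in the 3 libraries named TRULI_d5, a rate ratio of 62.2 with an interval of 24.0 to 230. It again passed the filter through TRULI_d10 alone, so nothing is read from its call or its place in the median. Mt1, Mt2, Timp1 and Cx3cl1 were, like Nfkbia, higher in each of the 4 libraries with a low mt-Rnr2 share than in any of the other 6.

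Of 27 further cytokines and chemokines, 9 had no count in any library, among them Il1a, Ifnb1, Cxcl9 and Ccl3. The highest per length were Il33, an alarmin of epithelial nuclei, at 79.5 TPM, Cxcl12 at 31.3 TPM, a ligand of Cxcr4, and Cxcl14 at 18.8 TPM. After withdrawal by label, 8 were tested and edgeR called 1, Cx3cl1, beside 2.07% of all genes. It was 11.2-fold higher with TRULI (log2 fold change 3.49, SE 0.50, edgeR adjusted p = 0.0324). Cx3cl1 encodes fractalkine, the ligand of a receptor on microglia and macrophages, and was at 66.1 and 57.9 CPM in TRULI_d10 against 4.24 and 6.74 CPM in the libraries labelled DMSO_d10. This call too was lost without DMSO_d10 replicate 1 (adjusted p = 0.236) or replicate 2 (0.130), with log2 fold changes of 3.17 and 3.89. DESeq2 called Cx3cl1 and Cxcl12, beside 7.42% of all genes. The median of the 8 was 0.09 against 0.02 over all genes. By name, edgeR called 0 of 7, beside 0% of all genes, and 1 had an unadjusted p under 0.05. DESeq2 called Cxcl14, beside 0.29% of all genes. The median was 0.34 against 0.01, and Cx3cl1 had a log2 fold change of 0.34 (SE 0.49, edgeR adjusted p = 0.9998).

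With TRULI withdrawn against TRULI present, edgeR called 0 of 8 by label, 0 had an unadjusted p under 0.05 and DESeq2 called 0, with a median of 0.47 against -0.02. By name edgeR called 2 of 8, beside 13.9% of all genes, and the median was -0.09 against -0.01. Cx3cl1 rose 11.2-fold (log2 fold change 3.49, SE 0.39, edgeR adjusted p = 0.00784) and Cxcl12 fell 3.69-fold (-1.88, SE 0.50, adjusted p = 0.0423). DESeq2 called both and also Lif, beside 13.6% of all genes. In the 6 agreed libraries, TRULI_d5 is a single library. The loss of the edgeR calls of Cxcl12, Mt1, Mt2 and Timp1 there does not bear on the size of their differences.

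All 30 further NF-kB factors, kinases and inhibitors had counts. The highest per length were Nfkbiz at 126 TPM, an atypical nuclear I-kB protein, Tax1bp1 at 104 TPM, an adaptor that works with A20, and Chuk at 49.5 TPM, which encodes IKK alpha. After withdrawal edgeR called 0 of 29 under either reading. By label 8 had an unadjusted p under 0.05, beside 24.5% of all genes, and DESeq2 called 3 (Bcl3, Rel and Traf1), beside 7.42%. These shares are near those of all genes. By name 1 had such a p and DESeq2 called 0. The medians were 0.50 by label and 0.14 by name, against 0.02 and 0.01 over all genes. For TRULI withdrawn against present by label, edgeR called 0 of 29, 1 had an unadjusted p under 0.05 and DESeq2 called 0. The median there was -0.02, against -0.02 over all genes. By name the median was 0.48, against -0.01 over all genes, and edgeR called 3 of 29, near the 13.9% of all 12450 genes. Zc3h12a, which encodes Regnase-1, a nuclease for cytokine transcripts, rose (log2 fold change 2.24, SE 0.56, edgeR adjusted p = 0.0358). Nfkb2 (-1.96, SE 0.53, edgeR adjusted p = 0.0431), the precursor of p52, and Tnip1 (-1.76, SE 0.46, adjusted p = 0.0415), which binds A20, fell. DESeq2 called these 3 and also Bcl3, Ikbke, Tbk1, Traf1 and Traf6, so 8 of the list, where it called 13.6% of 19958 genes. Zc3h12a, Nfkb2 and Tnip1 were not called by edgeR in the 6 agreed libraries. TRULI_d5 is a single library there, so no change in the size of their differences is read from this.

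The 28 receptors and signalling genes all had counts, led by Socs3 at 113 TPM, Stat3 at 105 TPM and Irak1 at 101 TPM. After withdrawal by label edgeR called 0 of 28, 2 had an unadjusted p under 0.05 and DESeq2 called Ltbr, beside 7.42% of all genes. By name edgeR called 0 of 26, 1 had such a p and DESeq2 called Il1rap, beside 0.29% of all genes. For TRULI withdrawn against present, 0 of 27 were called by label with edgeR or DESeq2 and 0 had an unadjusted p under 0.05. By name, edgeR called 1 of 28, beside 13.9% of all genes. This was Ltbr, the lymphotoxin beta receptor, which fell (-2.07, SE 0.47, edgeR adjusted p = 0.0271). It was not called in the agreed libraries, where TRULI_d5 is a single library, and no change in size is read from this. The medians of the receptor list lay between -0.08 and 0.11 in these 4 fits. The shares of all genes called given above apply to these lists as well.

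**Figure D5:**
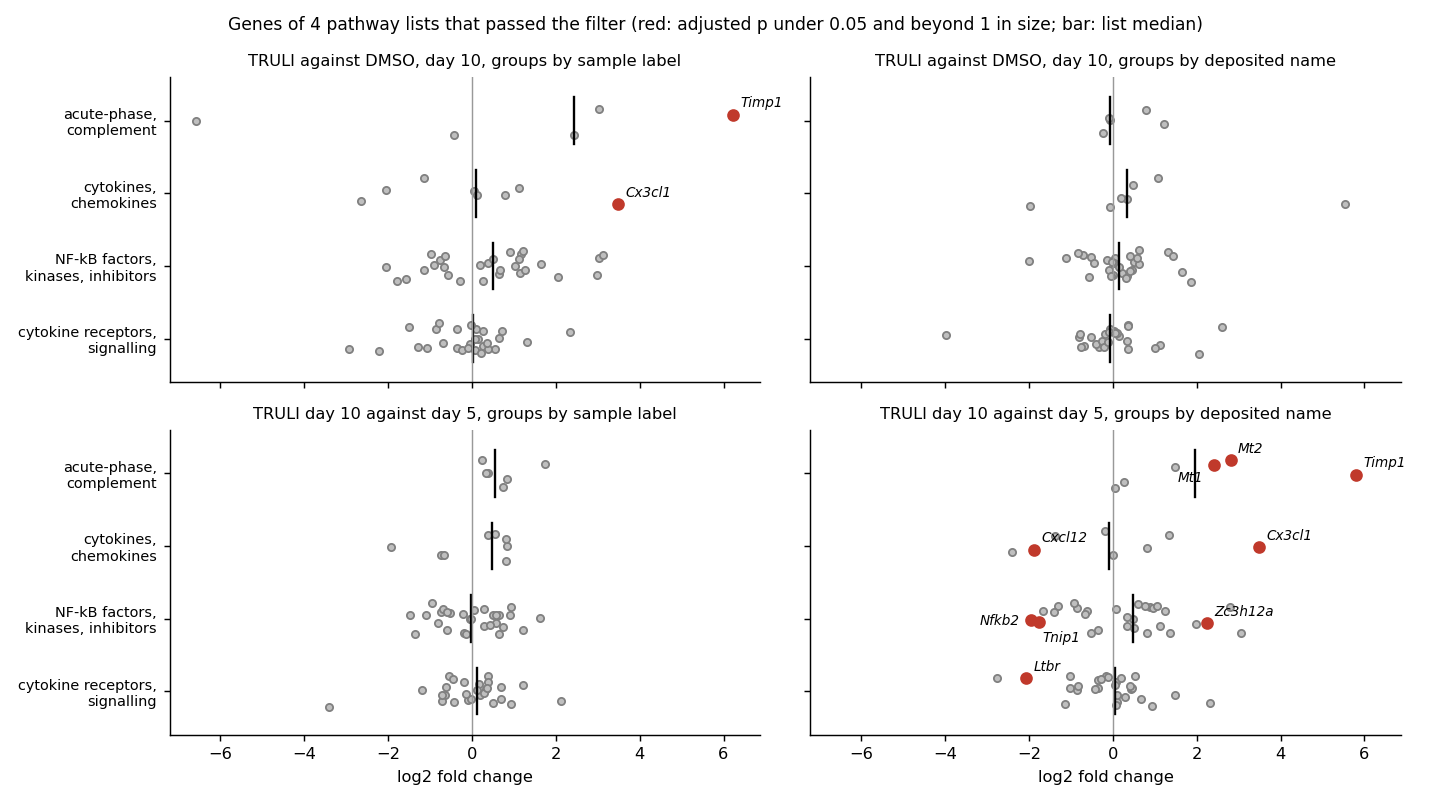
Log2 fold changes of the pathway-list genes that passed the filter, after withdrawal (top) and from TRULI present to withdrawn (bottom), by sample label (left) and by deposited name (right). Points are genes, bars are list medians, and red points are genes called by edgeR. Timp1 and Cx3cl1 were called after withdrawal by label, beside 2.07% of all genes. By name 9 genes were called from TRULI present to withdrawn, beside 13.9% of all genes. Timp1, called in both, passed the filter only through TRULI_d10, where it is high, and nothing is read from its calls.

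Genes with the profile most like that of each leading member were listed by the Pearson correlation of log2 CPM over the 10 libraries among genes with a mean of at least 10 CPM. The libraries share treatments, depth and the uncertain labels, and the values are a description. For Lcn2 they were Cdk7 (r = 0.949), Rab31 (0.948), Slc19a2 (0.943), Gm26723 (0.938) and Etfbkmt (0.936), among 8477 genes. For Serpina3n they were Tmem47 (0.941), Tspan8 (0.931), Copz1 (0.927), Tnfrsf21 (0.923) and Tmem176a (0.923). For Nfkbia, a list added after its values were seen, they were Gpc6 (0.989), Dazap1 (0.987), Keap1 (0.985), Hmga1 (0.983) and Pcnx (0.983). No list held a member. Lcn2 and Serpina3n were themselves nearly uncorrelated across libraries, at -0.19, and Lcn2 and Nfkbia were at 0.71.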

How the data were processed

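The 10 RNA-seq libraries of sorted utricular supporting cells were analysed from 1 table of estimated counts per library. Per the study's methods, the authors mapped reads to GRCm38/mm10 with STAR. The deposited expected counts, in columns of RSEM layout, list 48709 genes, the counting program is not given in the sources used here, and 3.53% of values are not whole. The labels and the methods name different library kits. Counts were rounded, and CPM used trimmed-mean (TMM) factors over all libraries. TPM was computed from the deposited effective lengths. Of the gene identifiers, 48349 matched GENCODE M21, and no table column was without a sample.

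Groups followed the sample labels, and the deposited names gave a second grouping. Each comparison was fitted with edgeR 4.0.16 (filterByExpr, glmQLFit, glmQLFTest) in R 4.3.3, with Benjamini-Hochberg adjustment over all genes tested, and genes were called below an adjusted p of 0.05 if the log2 fold change exceeded 1 in size. DESeq2 1.42.0 and the other settings in the closing section were alternatives. Fits were tested on simulated data. Same-numbered libraries correlated above 0.1 in each of 3 pairs at 5 days by name (0.380, 0.191 and 0.313) but not by label (-0.158, 0.067 and -0.195). Library pairs differed beyond sampling noise, with a chi-square of at least 15.3 per degree of freedom.

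The members and gene lists were chosen with earlier results of these data known. Named were all members, the list genes called in a tested comparison, the 3 of each list with the highest TPM and the 5 genes most like Lcn2 and Serpina3n, to which the 5 most like Nfkbia were added after seeing the values. Promoter windows came from RefSeq on GRCm38.p6. Intervals and count floors cover counting error only.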

Additional observations from a re-analysis of the deposited data

Results flagged for a closer look

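When the condition was read from the deposited names, the Serpina3n values of TRULI and DMSO libraries did not overlap at either time and lay in opposite orders. At 5 days each of the 3 TRULI libraries, at 0.527 to 1.99 CPM, lay below each DMSO library, at 5.61 to 21.9 CPM, with a log2 fold change of -3.61. After withdrawal both TRULI libraries, at 10.5 and 15.1 CPM, lay above both DMSO libraries, at 9.72 and 5.40 CPM, with a log2 fold change of 0.75 (SE 0.79), within 1 SE of 0. The contrast at 5 days is the one that chose the set. By sample label the groups at 5 days overlapped. The difference between the 2 times was not tested.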

How the results depend on the processing

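At 5 days, the log2 fold change of Lcn2 was 3.05 by deposited name and 2.98 with the replicate block of those names, and by name it ranged from 2.69 to 3.20 without each library in turn. By label that range was 3.48 to 3.82. Serpina3n was at -3.61 by name, -3.60 with that block and -4.80 in the 6 agreed libraries, an alternative added after seeing the data. Without each library it ranged from -4.13 to -3.29 by name and from -2.36 to -1.03 by label. With the replicate block of the labels, Lcn2 was at 3.66 and Serpina3n at -1.81. Between the DMSO groups, Lcn2 was at 3.72 by name and 3.66 with the block, and without each library from 3.38 to 4.06 by name and from 2.65 to 2.75 by label. Serpina3n was at -1.03 by name and -0.51 with the block, and without each library from -1.49 to -0.66 by name and from -3.72 to -2.94 by label.

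After withdrawal, 1 member, Nfkbia, was called with DESeq2, with no filter on low counts, with the replicate block and with protein-coding genes alone. By label, the log2 fold change of Nfkbia ran from 1.97 to 3.27 without each library in turn. Without TRULI_d10 replicate 2, Ccl2 passed the filter through the 38 counts of the library left in that group, so nothing is read from its call there. From TRULI present to withdrawn, 1 member, Nfkbia, was called by name, with the block of those names, with DESeq2 by name and in the agreed libraries. With the groups of the labels, 0 were called without each library, and by name Nfkbia was called without 3 of the 5 libraries. The lone library left in a group was taken to vary like the others. The replicate numbers of the labels did not pair the libraries at 5 days, and the block took calls over all genes from 253 to 1269 after withdrawal and from 1 to 0 at 5 days. By name, the numbers did not pair the libraries of TRULI present and withdrawn (same-number correlations of 0.084 and -0.151). With that block 4 of the 115 list genes were called (Cx3cl1, Mt1, Mt2 and Timp1), beside 8.86% of all genes. Without it 9 were called, beside 13.9%, the others being Cxcl12, Nfkb2, Tnip1, Zc3h12a and Ltbr.

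Small values changed sign. After withdrawal Nfkb1 was at -0.23 by name, -0.26 with the block, -0.23 with DESeq2 by name, and by label from -0.32 without TRULI_d10 replicate 1 to 0.30 without DMSO_d10 replicate 2 (-0.21 without DMSO_d10 replicate 1). Tnfaip3 was at -0.0031 by name, -0.38 with the block, -0.0096 with DESeq2 by name, and by label from -1.08 without TRULI_d10 replicate 1 to 1.21 without TRULI_d10 replicate 2. From TRULI present to withdrawn, Nfkb1 was at 0.037 by name, 0.15 with the block and 0.052 with DESeq2 by name, and by label from -0.49 without TRULI_d10 replicate 1 to 0.13 without replicate 2. Tnfaip3 ranged by label from -2.15 to 0.15 without the same libraries. C3 was by label at 0.019 without TRULI_d5 replicate 2 and from -1.99 without TRULI_d10 replicate 1 to 0.35 without replicate 2, at 1.65 with DESeq2 by name and 1.22 in the agreed libraries. The calls of Timp1 and Cx3cl1 after withdrawal by label, that of Timp1 resting on the filter, were lost by name and without either DMSO_d10 library. Both were also lost in a fit of all 10 libraries (edgeR adjusted p = 0.176 for Cx3cl1). Of the 115 list genes, 2 were called after withdrawal by label in the main fit, 0 in the fit of all 10 libraries and 9 with DESeq2. The shares of all genes called were 2.07%, 0% and 7.42%. The causes were not tested. Counts below 40 limit C3, Cxcl1, Cxcl10, Ccl2 and Il6.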
